A study of Ambystoma mexicanum with 8 samples.

Results

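The HOX genes encode homeodomain transcription factors that lie in the clusters A, B, C and D and are numbered by paralogue group in the order in which they sit along a cluster. In a developing limb, cells of the hand or foot use group 13. A cell's set of HOX transcripts is therefore read as a record of where along the limb it lies. In salamanders, connective tissue cells of the limb are known to keep such positional memory into adult life and to draw on it in regeneration. Whether the low-numbered groups mark a place along the limb was not tested here.

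The members were the annotated genes whose identifier ended in a HOX symbol of cluster A, B, C or D, and 20 of the 60956 annotated rows met that rule. By paralogue group, 8 were anterior (groups 1 to 3), 5 were central (4 to 8) and 7 were posterior (9 to 13). By cluster, 3 belonged to A, 5 to B, 5 to C and 7 to D. Both counts follow the last symbol of each identifier. All 20 symbols were present in the RefSeq axolotl gene table of assembly UKY_AmexF1_1. HOXA9, HOXA10, HOXA11, HOXC10, HOXD9 and HOXD12 had no identifier of their own under the rule and were not analysed here.

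The cells came from limbs of wild-type axolotls (Ambystoma mexicanum) and had been sorted as live cells with 4C DNA content, that is, with doubled DNA, before droplet sequencing of transcript 3' ends. The study set systemically activated limbs, 14 days post-amputation, against homeostatic limbs. The labels name the groups Contra (4 libraries, numbered 1, 2, 3 and 5) and Intact (4 libraries, numbered 1, 3, 4 and 5), and spell out neither Contra nor whether a limb was a forelimb or a hindlimb. They do not say that libraries came from separate animals, so p-values measure the spread between these libraries. A level is given as CPM, the unique molecular identifiers (UMIs, 1 per captured transcript) of a gene, divided by all UMIs of the same cells and scaled to counts per 1000000.

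Of 34149 deposited cells, 33860 had at least 500 genes and were kept, 22938 from Contra and 10922 from Intact libraries. Libraries held from 39721939 to 99777499 UMIs in Contra and from 13344968 to 69023082 in Intact, and 135 cell barcodes occurred in more than 1 library. Clustering without the HOX genes gave 36 clusters, which were named from marker genes: 13813 connective tissue-like cells, 10277 epidermal-like cells, 2463 endothelial-like cells and smaller classes, with 5372 cells unnamed. The summed level of the 12 connective tissue markers (PRRX1, COL1A1, DCN and others) was 65917 to 73573 CPM in Contra and 61730 to 78695 CPM in Intact connective tissue-like cells, against 3515 to 7600 CPM in Contra and 2084 to 6055 CPM in Intact epidermal-like cells. The 13 endothelial markers summed to 12781 to 14655 CPM in Contra and 12921 to 16471 CPM in Intact endothelial-like cells. The 11 epidermal markers found summed to 4160 to 5284 CPM in Contra and 4824 to 6598 CPM in Intact epidermal-like cells. In endothelial-like cells they summed to 1437 to 2249 CPM in Contra and 1417 to 2840 CPM in Intact libraries. Among them, KRT18 was at 591 CPM in epidermal-like, 660 CPM in connective tissue-like and 1572 CPM in endothelial-like cells (pooled). Intact library 3 stood apart from the other Intact libraries in being mostly connective tissue-like (57.0% of its cells, against a lowest Intact share of 14.2%).

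Across all kept cells the members gave 30716 UMIs, and 7 members had at least 1000. HOXD4 (AMEX60DD055607) had 9226 UMIs, HOXD3 had 3831 under the same identifier, HOXD10 (AMEX60DD055610) had 3652, HOXD13 (AMEX60DD055612) had 3306 and HOXD11 (AMEX60DD055611) had 3211. HOXA13 (AMEX60DD021953) had 1878 and HOXB7 (AMEX60DD010179) had 1068. At the other end, 4 members had fewer than 100 UMIs: HOXC13 had 39, HOXD1 had 22, HOXC4 had 12 and HOXB1 had 3.

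Several identifiers limit what a member's count means. HOXD3 and HOXD4 share 1 identifier, as do HOXB3 and HOXB7, and each pair lies side by side in the RefSeq table. The sources used here do not say how reads were divided between the rows of a pair. A row with no symbol carried the identifier of HOXC4 (AMEX60DD029499) and held 23143 UMIs, against the 12 UMIs of the row named HOXC4. Its pooled level was 87.8 CPM in connective tissue-like, 51.5 CPM in epidermal-like and 19.7 CPM in endothelial-like cells. It was not a member and its gene is not given, so the sums and rankings of members below leave it out. The identifiers HOXA11-HOXA3 (AMEX60DD021947) and HOXC3-HOXD3 (AMEX60DD029486) carry the symbols of 2 genes each, and the counts do not tell which of them a UMI came from. Both identifiers are written here with both symbols. The identifier number of HOXC3-HOXD3 is closer to that of HOXC11 (AMEX60DD029495) than to that of HOXD3 (AMEX60DD055607), although its last symbol counts it in cluster D.

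In connective tissue-like cells, the most abundant members were the low-numbered D cluster genes HOXD4 and HOXD3 together with the posterior genes HOXD11, HOXD10, HOXD13 and HOXA13. HOXD4, a group 4 gene, stood at 37.2, 49.7, 26.3 and 43.9 CPM in Contra libraries and at 43.6, 32.2, 46.0 and 38.6 CPM in Intact libraries, and averaged 39.7 ± 7.71 CPM (SD, n = 8). It was above every other member in each of the 8 libraries. HOXD11, which with its paralogue HOXA11 patterns the forearm in mice, had 14.1, 17.3, 11.4 and 13.3 CPM in Contra and 26.6, 13.4, 10.9 and 18.1 CPM in Intact libraries. HOXD3 had 17.4, 18.7, 12.1 and 15.3 CPM in Contra and 13.3, 15.5, 18.7 and 6.5 CPM in Intact libraries. HOXD10 was the most even of these, with 13.4, 14.9, 12.4 and 14.6 CPM in Contra and 17.0, 11.6, 13.02 and 12.5 CPM in Intact libraries.

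The group 13 genes, which pattern the hand and foot in mice, were detected in all 8 libraries. HOXD13 had 8.75, 11.7, 13.5 and 10.7 CPM in Contra and 11.4, 14.6, 10.5 and 9.29 CPM in Intact libraries. HOXA13 had 4.34, 8.87, 7.91 and 8.61 CPM in Contra and 7.75, 7.69, 6.06 and 6.5 CPM in Intact libraries. The averages over 8 libraries were 15.6 ± 5.10 CPM for HOXD11, 14.7 ± 4.08 for HOXD3, 13.7 ± 1.73 for HOXD10, 11.3 ± 1.97 for HOXD13 and 7.22 ± 1.5 for HOXA13 (SD, n = 8). The order of HOXD11, HOXD3 and HOXD10 was not fixed across libraries: HOXD11 was above HOXD3 in 2 of 8 and HOXD3 above HOXD10 in 5 of 8. HOXD10 was above HOXD13 in 6 of 8, and HOXD13 above HOXA13 in 8 of 8. These are levels of 3' transcript tags, which do not scale with gene length.

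Below these came HOXC8, a central gene, with 4.37, 5.92, 3.75 and 6.23 CPM in Contra and 2.95, 3.52, 4.10 and 0 CPM in Intact libraries. Intact library 5 had few connective tissue-like cells, 282, and its 0 allowed up to 1.39 CPM (3 UMIs, counting error only). The other 13 members averaged from 0.00620 CPM (HOXB1) to 2.18 CPM (HOXC11) in this class.

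Epidermal-like cells carried much less RNA of the members, and a different set of them. Their highest members were HOXD4, HOXC3-HOXD3, HOXD3 and HOXC5, with averages of 6.45 ± 1.62, 4.42 ± 0.898, 2.63 ± 0.749 and 2.51 ± 0.551 CPM (SD, n = 8). HOXD4 had 5.95, 6.81, 6.31 and 4.86 CPM in Contra and 4.41, 5.89, 7.96 and 9.41 CPM in Intact libraries. HOXC3-HOXD3 had 4.90, 4.38, 4.21 and 4.66 CPM in Contra and 3.80, 2.86, 5.99 and 4.52 CPM in Intact libraries. It was the member most weighted to epidermis: its lowest epidermal level lay above its highest level in connective tissue-like cells, 1.11 CPM, and in endothelial-like cells, 0.219 CPM. In endothelial-like cells a count of 0 allowed up to 7.98 CPM in Intact library 1 and 8.26 CPM in Intact library 5.

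HOXC5 had 2.97, 2.01, 2.75 and 3.01 CPM in Contra and 1.52, 2.14, 2.96 and 2.69 CPM in Intact epidermal-like cells. It was higher there than in connective tissue-like cells of the same library in 7 of 8 libraries. HOXB2, a group 2 gene, averaged 0.921 ± 0.257 CPM and was higher than in connective tissue-like cells in 8 of 8. The posterior genes were near the floor: HOXD13 averaged 0.298 CPM, HOXD10 0.261, HOXA13 0.254 and HOXD11 0.241, and HOXB1 and HOXD1 gave 0 UMIs in 10277 cells. Connective tissue markers also had the summed levels given above in this class, so the part of such low posterior values that belongs to epidermal cells was not tested.

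Endothelial-like cells combined HOXD4 with HOXB7, HOXB3 and HOXD10 and had little of the other posterior genes. HOXD4 had 39.6, 57.3, 36.9 and 49.0 CPM in Contra and 61.1, 42.0, 52.4 and 107 CPM in Intact libraries. The highest value came from Intact library 5, which held 72 endothelial-like cells. HOXB7 had 32.6, 30.8, 34.9 and 48.2 CPM in Contra and 45.2, 36.9, 18.7 and 30.3 CPM in Intact libraries. HOXB3 had 27.3, 21.3, 21.99 and 30.9 CPM in Contra and 29.2, 25.9, 16.8 and 30.3 CPM in Intact libraries. Both B-cluster genes were at least an order of magnitude lower in connective tissue-like cells, where HOXB7 averaged 0.886 CPM and HOXB3 1.02 CPM, and the library values of the classes did not overlap.

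HOXD10 had 22.1, 20.7, 19.9 and 19.9 CPM in Contra and 34.6, 25.7, 11.2 and 19.3 CPM in Intact endothelial-like cells. Its neighbours at the 5' side were low in the same cells: HOXD11 averaged 1.44 ± 1.17 CPM and HOXD13 0.877 ± 1.55 CPM (SD, n = 8), while HOXD10 averaged 21.7 ± 6.59 CPM. For HOXD13, Contra library 5 stood at 4.65 CPM and the other 7 libraries between 0 and 0.678 CPM. HOXD3 averaged 15.1 ± 3.19 CPM, close to its connective tissue level. HOXD4 exceeded its connective tissue-like level within the same library in 8 of 8 libraries, although the ranges of the classes overlapped.

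**Figure D1:**
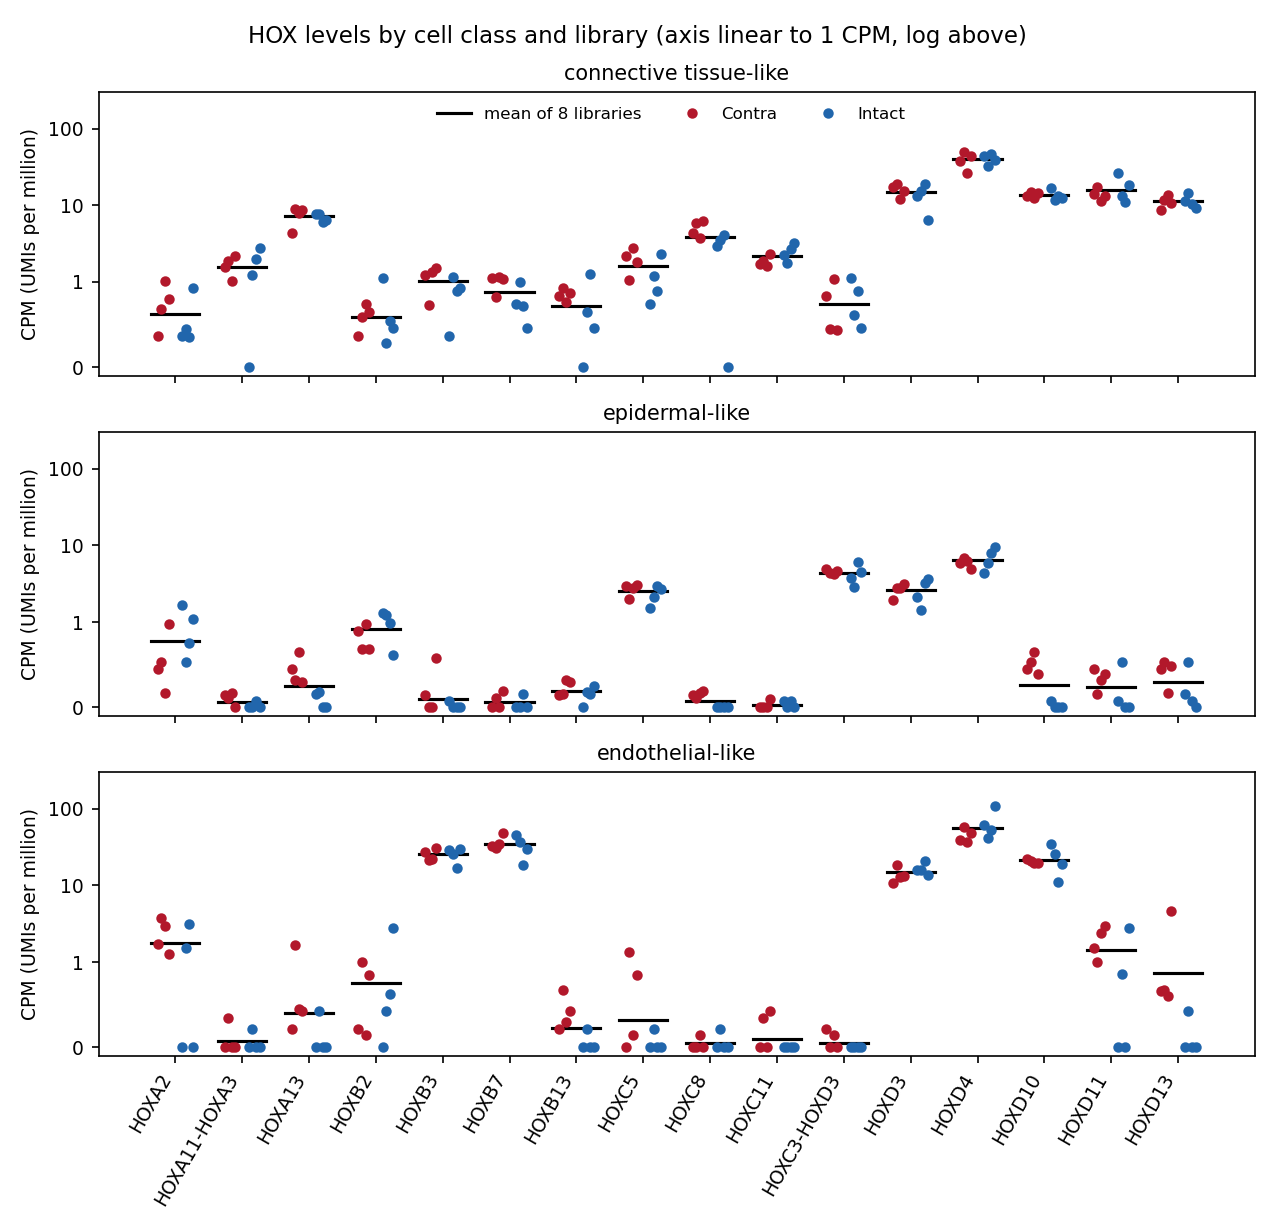
CPM of 16 HOX members in connective tissue-like, epidermal-like and endothelial-like cells; each point is 1 library (Contra left, Intact right), bars are means of 8 libraries, and the axis is linear to 1 CPM and logarithmic above. HOXB3 and HOXB7 are high in endothelial-like cells alone of the 3 classes, while HOXA13, HOXD11 and HOXD13 are high in connective tissue-like cells.

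Put together per gene, 8 members had every connective tissue-like library above every epidermal-like library: HOXA13, HOXB7, HOXC11, HOXD3, HOXD4, HOXD10, HOXD11 and HOXD13. Against endothelial-like cells, connective tissue-like cells had non-overlapping higher levels of HOXA13, HOXC11, HOXD11, HOXD13 and HOXC3-HOXD3. Only HOXB3 and HOXB7 went the other way with no overlap. Endothelial-like cells with no UMI of a gene still allowed up to 7.98 CPM in Intact library 1 and 8.26 CPM in Intact library 5. Those limits lie above the connective tissue-like averages of HOXA13 (7.22 CPM), HOXC11 (2.18 CPM) and HOXC3-HOXD3 (0.738 CPM). For these genes, a lack of UMIs in those libraries cannot show a lower level. The classes were set by gene expression with the HOX genes left out, and each class comparison is a description of the same 8 libraries with no test. The summed level of all members, pooled over libraries, was 112 CPM in connective tissue-like, 19.5 CPM in epidermal-like and 146 CPM in endothelial-like cells. It was 3.68 CPM in macrophage-like and 6.78 CPM in erythroid-like cells.

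A member was found in a minority of cells of any class. HOXD4 had at least 1 UMI in 27.3% of connective tissue-like, 4.09% of epidermal-like and 24.3% of endothelial-like cells, whose median UMIs per cell were 13524, 4285 and 8324. After each cell was thinned to 4000 UMIs, the shares were 11.7% of 12372, 2.62% of 5491 and 13.4% of 1906 cells. Macrophage-like cells, a blood lineage taken as the background for free RNA, had HOXD4 in 0.972% of cells at a median of 10978 UMIs.

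HOXD13 was found in 9.64% of connective tissue-like cells (3.94% thinned), against 0.324% of macrophage-like cells, and HOXA13 in 6.81% (2.86% thinned), against 0.648%. In epidermal-like cells HOXD13 (0.234%) and HOXA13 (0.156%) lay below those macrophage shares. These shares are unthinned, and median UMIs per cell were 4285 in epidermal-like and 10978 in macrophage-like cells. The comparison is therefore not at equal depth, and whether the epidermal values are background was not tested. HOXC3-HOXD3 was found in 3.41% of epidermal-like cells and HOXC5 in 1.80%, while 0 of 617 macrophage-like cells had either, which allows a share of up to 0.486%. HOXB7 was found in 23.5% of endothelial-like cells (13.3% thinned), against 0.324% of macrophage-like cells, and HOXB3 in 17.6% (10.1% thinned), against 0.

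Any member was detected in 58.7% of connective tissue-like, 12.3% of epidermal-like, 59.4% of endothelial-like and 3.89% of macrophage-like cells. At 4000 UMIs per cell these shares were 31.8%, 7.69%, 41.9% and 1.39%. Erythroid-like cells, another blood lineage, had any member in 3.90% of cells, and in 2.16% at 4000 UMIs per cell. At least 2 members were then seen in 6.43% of connective tissue-like, 0.346% of epidermal-like and 9.23% of endothelial-like cells. At this depth a cell with no HOX UMI cannot be called a cell without HOX expression.

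Within the connective tissue-like class, clusters differed in which end of the HOX series they used, although HOX genes had no part in making them. Pooled over libraries, cluster 22 (led by COL11A1 and COL5A3) had 89.8 CPM of HOXD4 and cluster 14 (led by COL21A1 and RIPOR3) had 85.1 CPM. HOXD13 in the same clusters was at 5.0 and 4.79 CPM. The HOXD4 range over libraries was 48.6 to 142 CPM in cluster 22 (6 libraries with at least 20 cells) and 67.7 to 127 CPM in cluster 14 (8 libraries). Cluster 6, led by ALDH1A2, VWDE and COL4A1, had the reverse weighting, with 15.5 CPM of HOXD4, 20.6 CPM of HOXD13 and 12.5 CPM of HOXA13. Its HOXD13 ranged from 3.95 to 25.4 CPM and its HOXD4 from 10.5 to 24.9 CPM over 8 libraries.

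Cluster 21, led by PTX3 and ACAN, had almost no HOXD4, with 1.90 CPM pooled and 0 to 3.64 CPM over 5 libraries, and no more HOXD3 (1.72 CPM). Its posterior genes were at 19.1 CPM for HOXD10, 18.3 for HOXD11, 10.2 for HOXD13 and 7.41 for HOXA13. TBX5, the forelimb T-box factor, was at 45.8 CPM in cluster 21, against 599 CPM in cluster 2. Cluster 2 (led by COL6A5 and CAPN5) leaned to the low-numbered genes, with 38.2 CPM of HOXD4 and 3.97 CPM of HOXD13.

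A cluster of 2400 cells that was left unnamed showed the strongest posterior weighting of the clusters described here. Cluster 5 was led by MFAP5, an identifier named KRT5, CRIP1, CD248 and OSR2, which mixes connective tissue genes with a keratin symbol. It had 20.002 CPM of HOXD13 and 7.78 CPM of HOXA13, but 1.06 CPM of HOXD4 and 0.797 CPM of HOXD3. HOXD13 ranged from 15.8 to 34.7 CPM and HOXD4 from 0 to 8.78 CPM over 7 libraries, and these ranges did not overlap. HOXA13 and HOXD13 made up 93.7% of the UMIs of those 4 genes in cluster 5, 82.9% in cluster 21 and 59.9% in cluster 6, against 10.1% in cluster 2, 7.76% in cluster 14 and 7.35% in cluster 22. Cluster 5 held 8.30 ± 4.59% of Contra cells and 2.85 ± 2.97% of Intact cells (SD, n = 4 libraries each), with overlapping ranges of 3.28 to 13.5% and 0.857 to 7.26%.

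**Figure D2:**
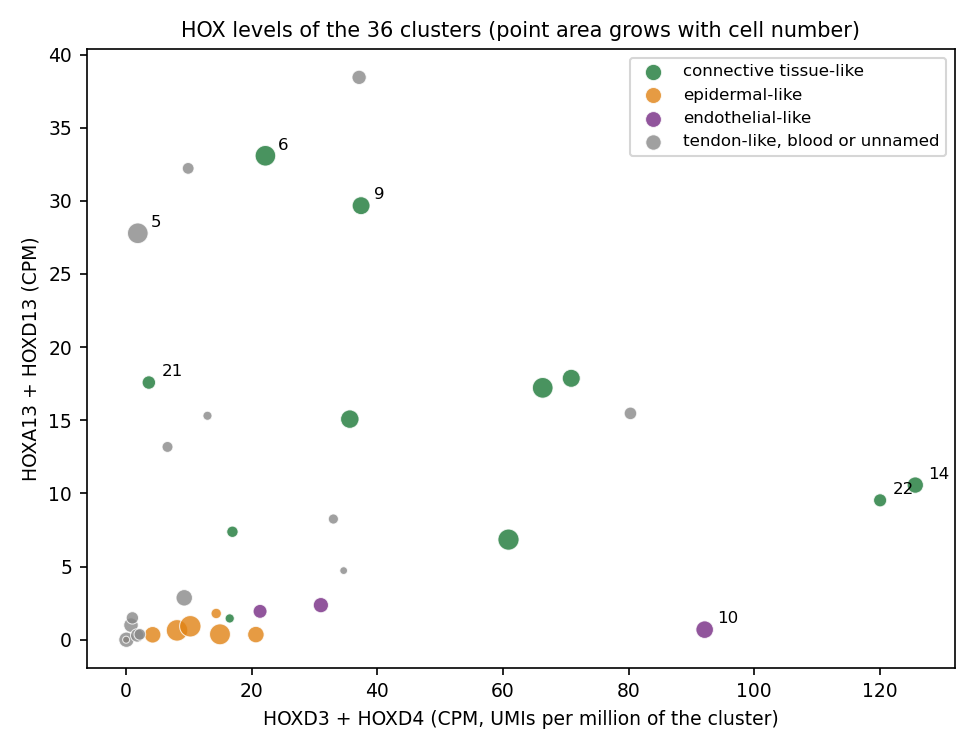
Each point is 1 of the 36 clusters, placed by its summed HOXD3 and HOXD4 level (horizontal, CPM) and its summed HOXA13 and HOXD13 level (vertical, CPM), with area growing with cell number and colour giving the class. Clusters 5 and 21 lie near 0 on the horizontal axis with raised group 13 levels, and clusters 14 and 22 lie far to the right with low group 13 levels.

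Among endothelial-like cells the 3 clusters also used different members. Cluster 10 was led by MMRN1, STAB1, TC2N, VWF, PROX1 and FLT4. Of these, MMRN1, STAB1, PROX1 and FLT4 are known from lymphatic vessels, while VWF also led cluster 19. Cluster 10 had the most HOXD4 (69.9 CPM pooled, 57.4 to 191 CPM over 8 libraries). It also had 25.6 CPM of HOXD10 and 26.0 CPM of HOXB7. Cluster 16, led by PLVAP, ESAM and APLNR, genes known from blood vessels, had the most HOXB3 (43.3 CPM, range 29.8 to 69.0 over 7 libraries). It had little HOXD10, 2.95 CPM with a range of 0 to 7.66, and 24.1 CPM of HOXD4. Cluster 19, led by LYVE1, VWF and PRSS23, had the most HOXB7 (48.7 CPM, range 31.5 to 70.4 over 6 libraries) and HOXD10 (35.1 CPM, range 10.5 to 43.9) and the least HOXD4 (15.1 CPM, range 6.12 to 21.1). The HOXD4 range of cluster 10 did not overlap that of either of the others.

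In epidermal-like cells, HOXC3-HOXD3 was at 7.25 CPM in cluster 3, which was led by genes including TP63, a basal keratinocyte factor. It stood at 6.25 CPM in cluster 0 (KRT5 and KRT15) and at 2.45 CPM in cluster 1 (UMOD and NOS2). HOXC5 was at 3.55 CPM in cluster 3, 3.51 CPM in cluster 0 and 1.53 CPM in cluster 1. HOXD4 was at 10.3, 5.62 and 7.10 CPM in the same 3 clusters. Cluster 12, led by ITGB4 and KRT19, had more HOXD4, with a median over 8 libraries of 16.6 CPM (range 10.6 to 26.6). That median was 10.5 CPM in cluster 3 (range 3.11 to 16.8) and 2.98 CPM in cluster 11 (range 1.10 to 3.94), which was led by S100P.

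Co-detection asked which members were found in the same connective tissue-like cells. The number of cells with both genes was set against the number that independent pairing would give within strata of library and depth. The 5 bins of UMIs per cell reduce the part of depth in the ratios, but depth still varies within a bin. HOXA13 and HOXD13, which lie in different clusters, were found together in 448 cells, against 109 expected, a ratio of 4.10 that ranged from 3.61 to 4.46 over libraries with at least 5 expected cells. Of the cells with HOXA13, 47.6% also had HOXD13, and 33.7% of cells with HOXD13 had HOXA13.

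Several pairs of D cluster genes also shared cells, neighbours among them. HOXD10 and HOXD11 were found together in 601 cells, against 319 expected (1.88, library range 1.16 to 2.11), and HOXD3 and HOXD4 in 1213, against 733 (1.65, range 1.44 to 1.93). Since HOXD3 and HOXD4 share an identifier, reads of 1 transcript may count under both. HOXD11 and HOXD13 were found together in 298 cells, against 217 expected (1.37, range 1.21 to 1.61). Pairs that are not neighbours reached similar ratios, with 1.41 for HOXD4 and HOXD11 (range 1.00 to 1.87) and 1.39 for HOXD3 and HOXD11 (range 1.17 to 1.93).

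Some other pairs were found together less often than the strata predict. HOXA13 and HOXD10 were in 112 cells, against 155 expected, a ratio of 0.725 (range 0.648 to 0.897), whereas HOXA13 and HOXD11, the neighbour of HOXD10, stood at 1.32 (range 0.974 to 1.63). HOXD4 and HOXD13 were in 354 cells, against 424 (0.836, range 0.643 to 1.04), so 1 library or more lay above 1. The ratio was 0.819 for HOXA13 with HOXD3 (range 0.534 to 1.09, which also crosses 1), 0.823 for HOXD13 with HOXD3 (range 0.488 to 0.969) and 0.857 for HOXA13 with HOXD4 (range 0.749 to 0.901). HOXD10 paired with HOXD4 at 1.40 and with HOXD3 at 1.46, while HOXA13 was below 1 with both.

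With the cluster added to the strata, HOXA13 and HOXD13 still stood at 3.56 (range 2.69 to 4.10), HOXD10 and HOXD11 at 1.68, HOXD3 and HOXD4 at 1.38, HOXA13 and HOXD10 at 0.710, and HOXD4 and HOXD13 at 0.870. Ratios are over cells, which are not replicates, and are given with no p. The sorted gate also admits pairs of 2C cells, and doublets were not removed in effect.

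In endothelial-like cells HOXD3 and HOXD4 were found together in 145 cells, against 82.7 expected (1.75, range 1.67 to 2.06), and HOXB3 and HOXB7 in 168, against 129 (1.3, range 1.10 to 1.55). Each of these pairs shares an identifier, so reads of 1 transcript may count under both. The B and D cluster genes shared cells less evenly. The ratio was 1.20 for HOXB7 and HOXD10 (range 1.10 to 1.49) and 0.827 for HOXB7 and HOXD4 (range 0.461 to 1.02, which crosses 1). It was 0.848 for HOXB3 and HOXD4 (range 0.719 to 0.969) and 0.668 for HOXB3 and HOXD3 (range 0.514 to 0.825). Clusters were not added to the strata in this class.

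**Figure D3:**
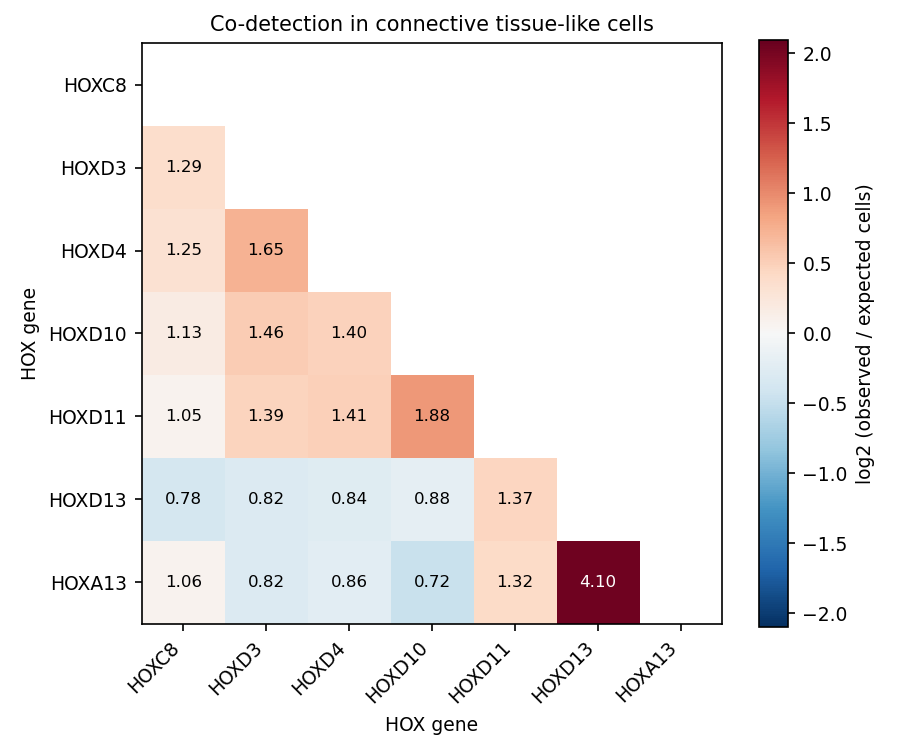
Observed over expected number of connective tissue-like cells with both genes of a pair, for 7 HOX members; numbers are the ratio and colour is its log2. The pair of HOXA13 and HOXD13 has the highest ratio, 4.10, and HOXA13 with HOXD10 the lowest, 0.725.

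Contra libraries were then compared with Intact libraries in each class, by edgeR's quasi-likelihood test on counts summed per library. No member was called in connective tissue-like cells, where 16 of 20 members had enough counts to be tested. The share of all genes called there at an adjusted p under 0.05 was 0% (0 of 31406), and 6.12% (1923 genes, none of them a member) had an unadjusted p under 0.05. The alternative tool DESeq2 called 18 of the 8855 genes to which it gave an adjusted p (0.203%) and none of the 3 members among them. Of the 16 members, 13 had a positive fitted log2 fold change, beside 50.8% of all genes tested, and the median was 0.25, beside 0.00 over all genes. By mean CPM, 10 of the 16 were higher in Contra, beside 36.5% of all genes: HOXB2, HOXC3-HOXD3 and HOXD4 had a positive fit but a lower mean in Contra (0.587, 0.708 and 39.3 CPM) than in Intact libraries (0.597, 0.767 and 40.1 CPM).

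HOXC5 had 2.16, 1.07, 2.79 and 1.81 CPM in Contra and 0.738, 1.21, 0.892 and 2.32 CPM in Intact connective tissue-like cells, and the groups overlapped. Its log2 fold change was 0.82 with SE 0.40 (edgeR adjusted p = 0.816). Each SE beside an edgeR log2 fold change is approximate. It is the absolute log2 fold change divided by the square root of the test's F statistic, and need not match the p-value. HOXC8 averaged 5.07 ± 1.19 CPM in Contra and 2.64 ± 1.82 CPM in Intact libraries (SD, n = 4 each), again overlapping, with an edgeR log2 fold change of 0.69, SE 0.33 (edgeR adjusted p = 0.816). HOXA13 had 0.14 with SE 0.24 and HOXD10 0.15 with SE 0.13 (edgeR adjusted p = 0.999 and 0.922). HOXD4 stood at 0.06 with SE 0.15, HOXD11 at -0.13 with SE 0.23 and HOXD13 at -0.01 with SE 0.22 (edgeR adjusted p = 1 for HOXD4 and HOXD13). A p above the threshold does not show equal levels. Of related genes tested in the same cells, none was called among 9 HOX partners, 30 limb identity, 12 retinoic acid and 17 chromatin genes, with median log2 fold changes of -0.04, 0.09, 0.03 and 0.04.

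In epidermal-like cells 4 members were tested and none was called. The background was 0% of 22294 genes at an adjusted p under 0.05 by edgeR and 4.32% (962 genes, no member) at an unadjusted one. DESeq2 called 6 genes (0.03%), no member among them. HOXD4 had a log2 fold change of -0.27 with SE 0.19 (edgeR adjusted p = 0.992), HOXD3 -0.09, HOXC3-HOXD3 -0.05 and HOXC5 0.09. The group means ran the other way for HOXD3 (2.65 CPM in Contra and 2.62 CPM in Intact) and HOXC3-HOXD3 (4.54 CPM in Contra and 4.29 CPM in Intact). In endothelial-like cells 5 members were tested and none was called, beside 0% of 15434 genes at an adjusted and 7.66% (1183 genes, no member) at an unadjusted p under 0.05 by edgeR. DESeq2 called 79 of the 2620 genes to which it gave an adjusted p in that class (3.02%), and no member was among the 2620. Without Intact library 3, edgeR called 11 genes in epidermal-like and 26 in endothelial-like cells, no member among them. HOXB7 had 0.30 with SE 0.25, HOXB3 0.16 with SE 0.22 and HOXD4 -0.27 with SE 0.23 (edgeR adjusted p = 0.845 for HOXB7 and HOXD4). The mean of HOXB3 was 25.4 CPM in Contra and 25.6 CPM in Intact endothelial-like cells, the other way from its fit.

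**Figure D4:**
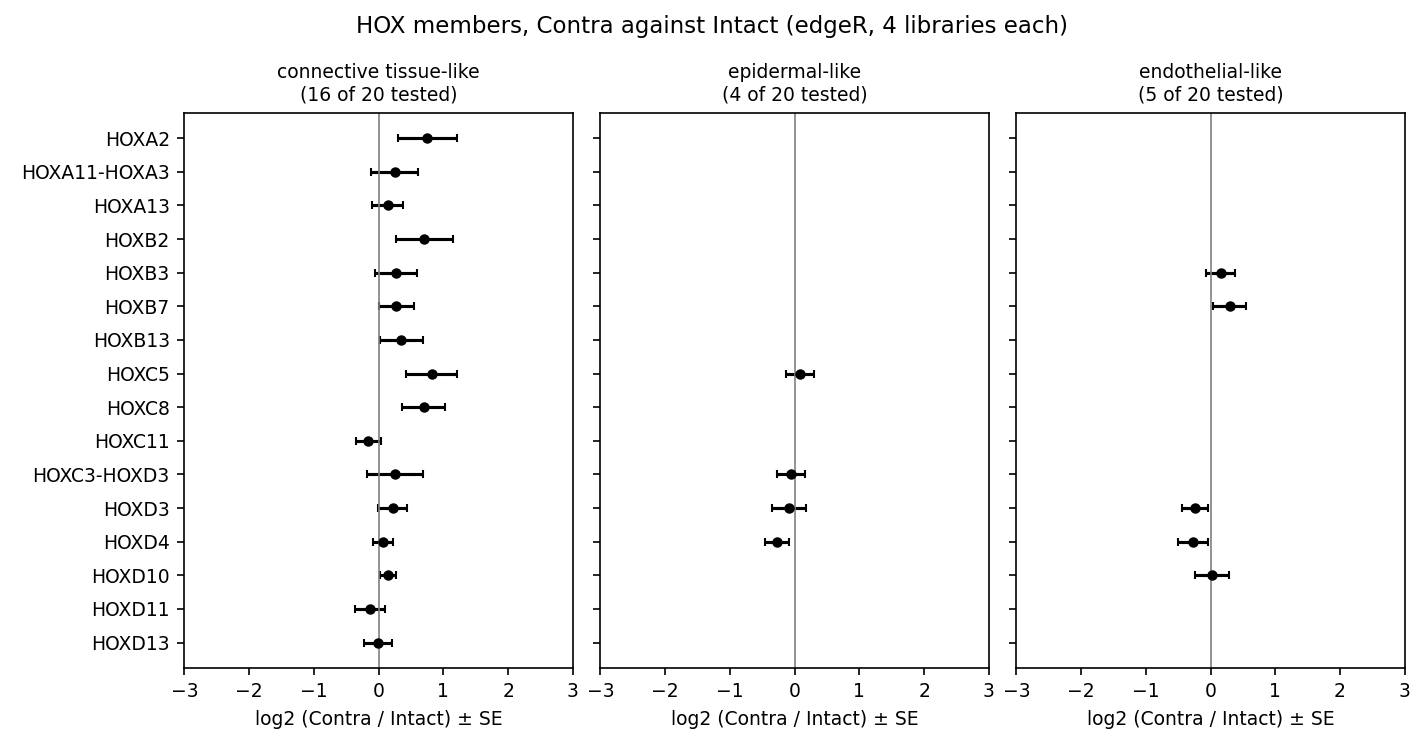
log2 fold change of Contra over Intact with its approximate standard error (horizontal) for each HOX member tested in connective tissue-like, epidermal-like and endothelial-like cells, 4 libraries in each group. No member was called in any class.

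When all cells of a library were summed, 2 of 16 members had an unadjusted p under 0.05 by edgeR, beside 7.49% of all genes (2795 of 37305), and neither passed the adjusted threshold, which 0% of genes passed (DESeq2 called 14, or 0.0315%, no member). HOXD10 averaged 10.2 ± 1.42 CPM in Contra and 5.07 ± 3.22 CPM in Intact libraries (log2 fold change 0.93, SE 0.35, edgeR adjusted p = 0.514). HOXD4 averaged 25.2 ± 5.06 CPM in Contra and 17.1 ± 6.25 CPM in Intact libraries (0.52, edgeR adjusted p = 0.514). HOXC8 did not overlap between groups, as was so for 2.18% of all genes tested, at 2.84 ± 0.416 CPM in Contra and 0.967 ± 1.03 CPM in Intact libraries (edgeR adjusted p = 0.514). Cell make-up moved beside these values: connective tissue-like cells were 22.8 to 55.9% of Contra and 14.2 to 57.0% of Intact cells, and epidermal-like cells were 7.90 to 42.6% of Contra and 9.29 to 72.5% of Intact cells. More cells of a class and more RNA per cell cannot be told apart in such sums, and the members' differences within classes are the ones given above. Without Intact library 3, edgeR called 5655 of 36162 genes (15.6%) in the sums of all cells and 11 of the 16 members tested, 10 with a positive and 1 with a negative log2 fold change.

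The difference between the Contra effect in connective tissue-like and that in epidermal-like cells was tested directly. At an adjusted p under 0.05, edgeR called 0% of 31171 genes, and 6.72% had an unadjusted p under 0.05. Without Intact library 3 it called 136 genes. Of the 16 members, HOXD10, HOXA13 and HOXC8 (3 members) had an unadjusted p under 0.05. The log2 difference was -3.70 for HOXD10 (edgeR adjusted p = 0.527), -1.82 for HOXA13 and -3.36 for HOXC8. In epidermal-like cells HOXD10 was at 0.446, 0.528, 0.648 and 0.389 CPM in Contra and at 0.0761, 0, 0 and 0 CPM in Intact libraries. All 3 genes were too low in that class to be tested there, and HOXA13 averaged 0.254 CPM and HOXC8 0.0763 CPM in it. They entered the direct test through their connective tissue-like counts, so their log2 differences and p-values rest on few epidermal UMIs. Only 4 members had enough counts to be tested in epidermal-like cells alone, so no conclusion is drawn from the count of 3 in 16. Connective tissue markers in epidermal-like cells summed to 3515 to 7600 CPM in Contra and 2084 to 6055 CPM in Intact libraries, and their part in these differences was not tested.

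Among the posterior genes, the group 13 share asked whether the mix of HOXA13 and HOXD13 with HOXD10 and HOXD11 differed between groups. Whether this share measures place along the limb was not tested. HOXA13 and HOXD13 made up 32.3, 38.9, 47.4 and 40.9% of the UMIs of HOXA13, HOXD13, HOXD10 and HOXD11 in Contra connective tissue-like cells, and 30.6, 47.1, 41.0 and 34% in Intact ones. The groups overlapped and their means differed by 1.71 percentage points (exact permutation test over libraries, two-sided, p = 0.771, where the smallest p possible is 0.0286). The difference was 0.980 points among libraries numbered 1 and 3 and 2.43 points among the others. Without Intact library 1 it was -0.819 points, and without Contra library 3 it was -0.802 points.

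TBX5 and TBX4 are T-box factors known from forelimbs and hindlimbs. TBX5 gave 97.2, 95.1, 95.6 and 94.96% of the summed TBX5 and TBX4 UMIs in Contra connective tissue-like cells and 92.7, 95.9, 93.5 and 95.5% in Intact ones. The difference of 1.31 points did not pass an exact permutation test over libraries (two-sided, p = 0.257). In the same class PITX1, known for hindlimb identity in mice, averaged 48.6 CPM and TBX5 294 CPM.

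Libraries were also split into 2 sets by number, 1 and 3 against the rest, a split known from earlier results of these data rather than from the labels. Because the same data gave the split, the counts and p-values that follow describe it and are no independent evidence for it. In connective tissue-like cells, edgeR called 622 genes (1.9%) between the sets and no member. At an unadjusted p under 0.05 the count was 4 of 16 members, beside 11.4% of all genes: HOXC3-HOXD3 (log2 fold change 0.99, edgeR adjusted p = 0.246), HOXC5 (0.84, adjusted p = 0.249), HOXD4 (-0.30, adjusted p = 0.376) and HOXA11-HOXA3 (-0.62, adjusted p = 0.398). In endothelial-like cells the counts were 188 genes (1.16%) and no member, and at an unadjusted p under 0.05, 10.4% of genes and 1 of 5 members, HOXD4 (-0.45, edgeR adjusted p = 0.409). In epidermal-like cells they were 1 gene (0.0043%) and 10.5%, with no member in either.

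Connective tissue-like cells with at least 1 UMI of HOXA13 or HOXD13 (13-positive, 1824 cells) were then set against a second set, library by library. The second set had HOXD10 or HOXD11 and neither of those group 13 genes (HOXD10/11-positive, 2571 cells). A 13-positive cell could also carry HOXD10 or HOXD11, so the sets are not opposite ends of the posterior series. The sets had close depths, with median UMIs of 16999 and 16942, and 1008 of the 13-positive cells rested on a single UMI of the group 13 genes. Those 4 genes chose the cells and were not tested. HOXD13 averaged 77.2 CPM and HOXA13 49.6 CPM in the 13-positive cells, while HOXD11 averaged 26.8 CPM in 13-positive and 50.1 CPM in HOXD10/11-positive cells.

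Beyond those 4 genes, edgeR with library as a block called 865 of 20921 genes (4.13%), of which 443 were higher and 422 lower in 13-positive cells. The count was 569 without Contra library 2 and 479 without Intact library 3. Of 5 members tested, 3 were called. HOXD4 was at 33.6 ± 8.52 CPM in 13-positive cells, against 58.0 ± 8.47 CPM in HOXD10/11-positive cells (SD, n = 8 libraries). Its log2 fold change was -0.86, SE 0.08 (edgeR adjusted p = 1.38e-08). HOXD3 was at 12.8 ± 5.61 CPM in 13-positive cells, against 20.5 ± 7.17 CPM in HOXD10/11-positive cells (log2 fold change -0.71, SE 0.10, edgeR adjusted p = 3.17e-05, lower in 7 of 8). Over all connective tissue-like cells HOXD4 averaged 39.7 CPM and HOXD3 14.7 CPM, nearer to the levels of 13-positive than of HOXD10/11-positive cells. HOXD4 and HOXD10 shared more cells than the strata predict, at 1.40, and the same cells underlie both results.

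HOXB13, the group 13 gene of the B cluster, was higher in 13-positive cells, 1.57 ± 1.36 CPM, against 0.472 ± 0.361 CPM in HOXD10/11-positive cells (log2 fold change 1.35, SE 0.38, edgeR adjusted p = 0.0390). It rested on 50 UMIs in 13-positive and 28 in HOXD10/11-positive cells, a ratio per UMI of 2.53 (95% counting interval 1.56 to 4.17). The adjusted p was 0.107 without Contra library 5, and the gene was too low to be tested without Contra 1, 2 or 3 or without Intact 3. HOXC11 had 2.93 CPM in 13-positive and 2.58 CPM in HOXD10/11-positive cells (edgeR adjusted p = 0.227), and HOXC8 had 3.96 CPM in 13-positive and 4.87 CPM in HOXD10/11-positive cells (adjusted p = 0.322).

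Outside the HOX genes, PI15, a secreted peptidase inhibitor, was at 139 CPM in 13-positive and 27.0 CPM in HOXD10/11-positive cells (log2 fold change 1.99, SE 0.13, edgeR adjusted p = 2.79e-11). PCP4, a calmodulin regulator, was at 18.6 CPM in 13-positive and 4.59 CPM in HOXD10/11-positive cells (2.20, SE 0.15, edgeR adjusted p = 2.99e-11). In 13-positive cells the serotonin transporter SLC6A4 was at 93.2 CPM, the matricellular protein gene NOV-CCN3 at 284 CPM and the small proteoglycan ASPN.L-ASPN at 42.1 CPM. In HOXD10/11-positive cells the same genes were at 31.8, 140.1 and 19.0 CPM. DR999-PMT14785, NEURL1B, PDE1C, NDNF and TMEM121 complete the 10 named genes that were higher in 13-positive cells. The naming rule asked for the same direction in every library.

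EDNRB, the endothelin receptor B, was at 11.03 CPM in 13-positive and 46.7 CPM in HOXD10/11-positive cells (log2 fold change -1.92, SE 0.12, edgeR adjusted p = 3.23e-12). AAES-15983-RSPO1, an identifier named for the WNT agonist R-spondin 1, was at 1274 CPM in 13-positive and 2612 CPM in HOXD10/11-positive cells, a log2 fold change of -1.02. The neuropeptide gene NTS was at 7.96 CPM in 13-positive and 22.8 CPM in HOXD10/11-positive cells, and the noradrenaline transporter SLC6A2 at 84.4 CPM in 13-positive and 182 CPM in HOXD10/11-positive cells. ALX1, C1QTNF7, RASSF9, VSTM2L and a gene with only a locus-style name were also lower in 13-positive cells, and with HOXD4 they make up the 10 named.

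Genes of limb identity and axis patterning were among those called. Of 27 identifiers tested from that list, edgeR called 6 higher and 8 lower in 13-positive cells, beside 4.13% of all genes. The list's median log2 fold change was -0.02, as it was over all genes. HAND2 was at 37.4 CPM in 13-positive and 24.5 CPM in HOXD10/11-positive cells (log2 fold change 0.67, SE 0.09, edgeR adjusted p = 3.71e-06, higher in 7 of 8 libraries). A second identifier, HAND1-HAND2, did not pass (0.05, adjusted p = 0.919). IRX3 was at 16.9 CPM in 13-positive and 8.47 CPM in HOXD10/11-positive cells (1.04, SE 0.12), and EMX2 was at 17.4 CPM in 13-positive and 8.63 CPM in HOXD10/11-positive cells (0.77). IRX5 (0.44), MSX2 (0.36) and MSX1 (1.38) were the others that were higher in 13-positive cells. MSX1 rested on 82 UMIs in 13-positive and 45 UMIs in HOXD10/11-positive cells. Leaving out 1 library ended some of these calls: the edgeR adjusted p of MSX1 was 0.0792 without Contra 1, 0.100 without Contra 2 and 0.141 without Intact 3, that of IRX5 was 0.179 without Contra 2 and 0.113 without Contra 3, and that of MSX2 was 0.0565 without Contra 2. In cells with at least 2 UMIs of the choosing genes it was 0.112 for EMX2, 0.199 for IRX5 and 0.323 for MSX2 by edgeR.

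ALX1, ALX4 and PAX9 were among the genes of that list that were lower in 13-positive cells. ALX1 was at 19.6 CPM in 13-positive and 65.1 CPM in HOXD10/11-positive cells (log2 fold change -1.58, SE 0.11, edgeR adjusted p = 6.22e-11). ALX4 was at 77.7 CPM in 13-positive and 121 CPM in HOXD10/11-positive cells (-0.69), and PAX9 at 1.71 CPM in 13-positive and 5.13 CPM in HOXD10/11-positive cells (-1.59). The homeobox genes LHX9, PITX1 and SHOX were at 12.2, 29.6 and 256 CPM in 13-positive cells, against 26.4, 49.1 and 343 CPM in HOXD10/11-positive cells. TBX5 was at 256 CPM in 13-positive cells, against 348 CPM in HOXD10/11-positive cells (-0.43, edgeR adjusted p = 3.51e-05, lower in 8 of 8), and TBX15 had a log2 fold change of -0.35. In cells with at least 2 UMIs of the choosing genes (6 libraries), the edgeR adjusted p was 0.236 for TBX5 and 0.0699 for TBX15.

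HOX proteins bind DNA with partners of the TALE class, of which MEIS genes mark the proximal limb in mice. The list held 9 tested genes, of which the MEIS genes called by edgeR are given here. MEIS1 was at 17.5 CPM in 13-positive cells, against 29.4 CPM in HOXD10/11-positive cells (log2 fold change -0.64, edgeR adjusted p = 1.03e-04, lower in 8 of 8). MEIS2 passed narrowly (-0.43, edgeR adjusted p = 0.0403), and its adjusted p was 0.212 without Contra 2, 0.0977 without Contra 3, 0.257 without Intact 3, 0.0812 without Intact 4 and 0.0512 without Intact 5. It was 0.178 with clusters as separate units and 0.112 by DESeq2. Across classes, MEIS1 averaged 44.5 CPM in connective tissue-like, 112 CPM in epidermal-like and 9.99 CPM in endothelial-like cells.

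Of 11 genes of retinoic acid handling tested, edgeR called 2 higher and 2 lower in 13-positive cells, beside 4.13% of all genes. ALDH1A2, which makes retinoic acid, was at 83.5 CPM in 13-positive and 45.4 CPM in HOXD10/11-positive cells (log2 fold change 0.88), and CYP26A1, which degrades it, rested on 101 UMIs in 13-positive and 25 UMIs in HOXD10/11-positive cells, a ratio per UMI of 5.72 (95% counting interval 3.66 to 9.26). ALDH1A3 was at 330 CPM in 13-positive and 452 CPM in HOXD10/11-positive cells (-0.45), and the carrier CRABP2 at 423 CPM in 13-positive and 554 CPM in HOXD10/11-positive cells (-0.34). With clusters as separate units, the adjusted p was 0.363 for ALDH1A2, 0.120 for ALDH1A3 and 0.115 for CRABP2 by edgeR, and by DESeq2 it was 0.148 for ALDH1A2.

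Of 16 identifiers tested from the list of chromatin regulators and HOX neighbours, 1 was called, EVX1. EVX1 is a homeobox gene that lies next to HOXA13 in the RefSeq table, and it gave 114 UMIs in 13-positive and 2 UMIs in HOXD10/11-positive cells, a ratio per UMI of 80.8 (95% counting interval 21.9 to 675). It averaged 0.686 CPM over all connective tissue-like cells.

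The 13-positive cells were not spread over clusters as the others were: 24.8% of them lay in cluster 6, against 14.7% of HOXD10/11-positive cells, and 25.5% of them lay in cluster 4, against 29.1% of HOXD10/11-positive cells. With each library and cluster kept apart (38 pairs with at least 10 cells of each kind), 800 of the 865 called genes could be tested, 792 had the same sign and 365 were called again. The comparison within clusters called 510 of 13535 genes (3.77%), HOXD3 and HOXD4 among them. Pairs from 1 library share their source, so those p-values are too small. The Contra libraries alone gave 627 called genes and the Intact libraries alone 79. HOXD4 passed in both (edgeR adjusted p = 0.0453 in the Intact libraries alone), and HOXD3 had an adjusted p of 0.345 in the Intact libraries alone.

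**Figure D5:**
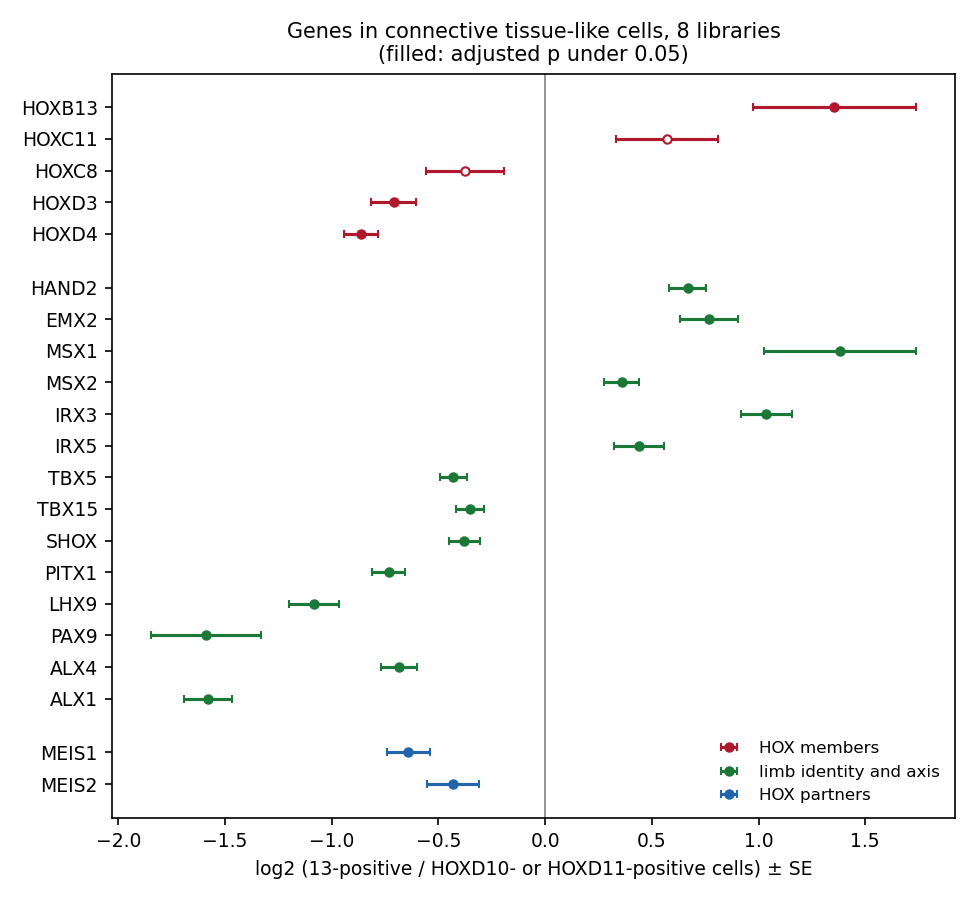
log2 fold change of 13-positive over HOXD10/11-positive connective tissue-like cells with its approximate standard error (horizontal), for HOX members, limb identity genes and HOX partners, over 8 libraries. Filled points have an edgeR adjusted p under 0.05. HOXD4, HOXD3, ALX1, ALX4, PAX9 and MEIS1 lie left of 0 and HAND2, EMX2 and IRX3 lie right of it.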

How the data were processed

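The authors deposited raw UMI counts per gene and cell. The submitters' processing notes name kallisto 0.48.0 and Seurat 4.2.0; the genome build and the use of strand are not given in the sources used here. Cells with at least 500 genes were clustered with scanpy 1.11.5 and leidenalg 0.10.2 (2000 variable genes, 30 components, 20 neighbours, resolution 1) after HOX genes were left out, and clusters were named from marker lists. A doublet caller marked 104 cells (0.307%), too few for the call to be used, so doublets were not removed; leaving out the 1361 cells of highest score was an alternative. Counts were summed per library and class and tested with edgeR 4.0.16 in R 4.3.3 (quasi-likelihood, TMM, filterByExpr, Benjamini-Hochberg over all genes), with DESeq2 1.42.0 as an alternative. The edgeR steps were tested on simulated data with 200 changed genes.

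The main Contra and Intact tests used 4 libraries in each group with no block. Shares of UMIs were compared over libraries by exact permutation tests, and intervals and limits on 0 cover counting error at the 95% level. Members, lists and the split of libraries by number were chosen with earlier results of these data known, and the lists support nothing independently. Named genes were members with at least 1000 UMIs, the 5 highest members of each class, members at an unadjusted p under 0.05, and up to 10 genes in each direction, by smallest p, that changed the same way in every library. A planned contrast of HOXA13 and HOXA11 had no HOXA11 identifier to use, and the contrast of 13-positive and HOXD10/11-positive cells, chosen after seeing the data, took its place with the same test and naming rule. Library depth ranged as given above and limits the members with few UMIs most. The values of 1 gene of the partner list are not reported here.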

Additional observations from a re-analysis of the deposited data

Results flagged for a closer look

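HOXA2 in connective tissue-like cells of Intact library 5 stood at 0.929 CPM, far from the 0.357 to 0.443 CPM of the other 3 Intact libraries. It rested on 2 UMIs. Of 54 groups of 4 libraries examined for a library far from the rest, this was the 1 found, where chance gives about 1 in 20.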

How the results depend on the processing

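Over the 41 member results of Contra against Intact and their 494 alternative values, no alternative gave a call, other than 11 in all cells without Intact library 3. Directions near 0 turned. In connective tissue-like cells the HOXD13 log2 fold change of -0.01 became 0.0136 with no filter, 0.00723 with a replicate block over numbers 1, 3 and 5, 0.00804 and 0.00928 at resolutions 0.5 and 2, and 0.0519 with cluster 5 added, an alternative chosen after seeing the data; with the block HOXD4 of the same cells became -0.0251, epidermal HOXC3-HOXD3 0.143, and endothelial HOXB3 -0.0216 and HOXD10 -0.241. The causes were not tested.

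Leaving out 1 library gave, in connective tissue-like cells, -0.208 to 0.449 for HOXC3-HOXD3, -0.301 to 0.140 for HOXD11, -0.207 to 0.242 for HOXD13 and -0.0658 to 0.166 for HOXD4. In epidermal-like cells it gave -0.205 to 0.0881 for HOXC3-HOXD3 and -0.263 to 0.0295 for HOXD3, in endothelial-like cells -0.0350 to 0.305 for HOXB3 and -0.263 to 0.345 for HOXD10, and in all cells -0.449 to 0.244 for HOXA2 and -0.461 to 0.155 for HOXB2. The group 13 share difference ranged from -0.819 to 4.68 points. Of the connective tissue members, between 10 of 14 (without Contra library 3) and 14 of 16 had a positive fitted log2 fold change.

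Counts of called genes ranged, with 1 library left out, over 0 to 0 (connective tissue-like), 0 to 11 (epidermal-like), 0 to 26 (endothelial-like), 0 to 5655 (all cells), 0 to 136 (difference of classes) and 479 to 1078 (13-positive cells). DESeq2 called 18, 6, 79 and 14 genes in connective tissue-like, epidermal-like, endothelial-like and all cells. With no filter, edgeR called 6 epidermal and 391 endothelial genes. The replicate block gave 1 connective tissue, 0 epidermal and 145 endothelial genes, against 0 without it over the same libraries; no member was called. Libraries sharing a number did not all deviate together (correlations of -0.0175 for number 1, 0.298 for 3 and 0.115 for 5), so the numbers are not taken as pairs. For 13-positive cells the count was 1360 at 2 or more UMIs (6 libraries), 510 within clusters, 627 in Contra and 79 in Intact libraries alone.

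Thinning to 2000 UMIs in place of 4000 lowered the shares to 1.43% for HOXA13 and 2.29% for HOXD13 in connective tissue-like, 0.597% for HOXC5 in epidermal-like and 5.98% for HOXB7 in endothelial-like cells. Co-detection in cells thinned to 4000 UMIs was 5.25 for HOXA13 and HOXD13, 1.94 for HOXD3 and HOXD4 and 0.534 for HOXD4 and HOXD13; within clusters the first 2 were 3.56 and 1.38. The planned contrast and share of HOXA13 and HOXA11 were not run. Depth limits members under 100 UMIs, which edgeR did not test.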
